A study of Mus musculus with 13 samples.

Results

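The genes described here are 10 dendritic cell genes, Siglech, Spib, Bst2, Tlr7, Tlr9, Cx3cr1, Itgax, Zbtb46, Batf3 and Klf4, read out of 24072 RefSeq identifiers in RNA sequencing of mouse common lymphoid progenitors (CLP). CLP are the bone marrow cells from which B, T and innate lymphoid cells arise. The members were taken by symbol. Total RNA was measured in 13 libraries from wild-type C57BL/6 mice, whose CLP were separated by flow cytometric sorting on Ly6D and Gfra2, both surface proteins. There were 3 libraries of Ly6D+Gfra2+ CLP, 4 of Ly6D+Gfra2- CLP and 6 of Ly6D-Gfra2- CLP. The labels give neither the age of the mice nor whether libraries came from separate animals or pools, so a p-value here reflects only how far these libraries spread, which may be technical. The study set the 3 compartments side by side to look at differences within the early lymphoid compartment.

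Dendritic cells are antigen-presenting cells of several kinds. Plasmacytoid dendritic cells sense nucleic acids through Toll-like receptors in endosomes and release type I interferon, and they can arise from lymphoid as well as myeloid progenitors. Conventional dendritic cells take up antigen and present it to T cells. Ly6D marks the CLP that are turning towards B cells, and Gfra2, a receptor for GDNF-family ligands, divides the Ly6D+ cells further.

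Library totals ran from 6892728 to 23705975 counts. The code in brackets in each title starts with P or T, called the prefix here, and what the letter stands for is not given in the sources used here. Prefix P is found on Ly6D+Gfra2- replicates 1 and 2 and on replicates 1, 2 and 3 of Ly6D-Gfra2-, while all remaining libraries, with them the 3 of Ly6D+Gfra2+, have prefix T. Levels are CPM, counts per 1000000 of the TMM-scaled library size, and fold changes come from an edgeR fit over all 13 libraries with the prefix as a term. Gfra2 was at 287 to 515 CPM in all 3 Ly6D+Gfra2+ libraries and at no more than 14.7 CPM in any other. Ly6d was at 171 to 283 CPM in Ly6D+Gfra2+ libraries and at 158 to 507 CPM in Ly6D+Gfra2- libraries. It was at 0.623 to 8.30 CPM in 5 Ly6D-Gfra2- libraries, while the library labelled replicate 3 of Ly6D-Gfra2- held 213 CPM, within the range of the Ly6D+ libraries and against its label. For some comparisons, the tests of Siglech, Spib, Bst2 and Itgax are given with and without it. The counts of members called and the levels per length are also given both ways. The CLP markers Il7r and Flt3 averaged 926 and 1030 CPM in Ly6D+Gfra2+ libraries, 665 and 1017 CPM in Ly6D+Gfra2- libraries and 441 and 991 CPM in Ly6D-Gfra2- libraries.

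The sequences just before the start sites of Siglech, Spib and Bst2 are shown because Siglech and Spib are the members that passed the edgeR test once the library labelled replicate 3 of Ly6D-Gfra2- was left out, and Bst2 is the interferon-induced member. RefSeq sequences for the GRCm38.p6 build were matched for 9 of the 10 genes, in windows from 250 bases before to 50 bases after the start site, and the 250 bases before it are printed 5′ to 3′. The windows are chr7:55767934-55768183 on the plus strand for Siglech, chr7:44532072-44532321 on the minus strand for Spib and chr8:71537473-71537722 on the minus strand for Bst2. The last 30 bases of the Siglech window and the last 16 of the Spib window lie inside the annotated gene, which has a start site further out. The Zbtb46 window, not printed, lies wholly inside its annotated gene, at a start site downstream of the outermost one. Capitals mark matches to the motifs searched on both strands, which were the E-box forms CACCTG and CAGCTG, the ETS form GAGGAAGT, the interferon-response form made of GAAA, any 2 bases and GAAA, and the EBF form made of TCCC, any 2 bases and GGGA.
Siglech: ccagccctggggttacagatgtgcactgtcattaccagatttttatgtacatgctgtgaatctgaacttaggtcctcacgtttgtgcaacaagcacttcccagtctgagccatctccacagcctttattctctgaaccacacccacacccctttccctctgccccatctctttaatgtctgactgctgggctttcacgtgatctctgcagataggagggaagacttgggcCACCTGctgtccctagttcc
Spib: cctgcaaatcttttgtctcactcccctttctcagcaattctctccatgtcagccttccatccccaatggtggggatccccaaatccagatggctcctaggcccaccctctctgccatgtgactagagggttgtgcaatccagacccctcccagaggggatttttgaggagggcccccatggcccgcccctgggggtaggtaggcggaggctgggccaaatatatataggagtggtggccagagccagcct
Bst2: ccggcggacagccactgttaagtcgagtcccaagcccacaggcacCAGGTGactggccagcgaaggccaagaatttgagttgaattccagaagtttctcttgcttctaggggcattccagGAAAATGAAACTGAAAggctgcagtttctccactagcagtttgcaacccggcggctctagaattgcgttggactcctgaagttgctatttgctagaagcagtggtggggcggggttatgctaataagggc

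The Siglech window held CACCTG at bases 231 to 236. The Bst2 window held it on the other strand at bases 46 to 51 and held the interferon-response form at bases 121 to 130 and again at bases 127 to 136, where the matches overlap. None of the searched letters were found in the Spib window. Over the 9 genes, CACCTG was found for Siglech, Bst2, Tlr9 and Zbtb46, a share of 4 of 9 beside 20.2% of all 32851 RefSeq promoter windows of the same length. CAGCTG was found for Cx3cr1, Itgax and Klf4, beside 16.3% of all windows, and GAGGAAGT for Tlr9 alone, beside 3.20%. The interferon-response form was found for Bst2 alone, beside 3.44% of all windows, and the EBF form for 0 of 9, beside 0.904%.

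Siglech, a sialic acid-binding receptor of plasmacytoid dendritic cells (NM_178706, chr7:55768154-55779448), was the highest of the 10 genes in Ly6D+Gfra2- CLP and was low in Ly6D+Gfra2+ CLP. It was at 16.6, 29.6 and 9.10 CPM in Ly6D+Gfra2+ libraries, against 346, 276, 319 and 229.9 CPM in Ly6D+Gfra2- libraries. All 3 Ly6D+Gfra2+ values lay below all 4 Ly6D+Gfra2- values. The Ly6D-Gfra2- libraries held 15.7 CPM at the lowest, a median of 38.9 CPM and 299 CPM at the highest, and that highest value was the library labelled replicate 3; the other 5 lay between 15.7 and 54.9 CPM. In bulk libraries such as these, fewer cells of a type and less RNA per cell cannot be told apart.

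Mean Siglech was 18.4 ± 10.3 CPM in Ly6D+Gfra2+ (SD, n = 3) and 292.7 ± 51.0 CPM in Ly6D+Gfra2- libraries (SD, n = 4), a 15.9-fold lower mean. The fitted log2 difference was -3.33 (SE 0.74), with an adjusted p of 0.0606 by edgeR's quasi-likelihood test, which missed the threshold of 0.05. It passed in fits with no low-count filter (edgeR adjusted p = 0.00057) or no prefix term (0.044), and with the third compartment left out (0.0244). Without the library labelled replicate 3 of Ly6D-Gfra2- the difference was -3.62 (SE 0.48, edgeR adjusted p = 0.00297). In the libraries of prefix T alone it was -3.91 (SE 0.56, edgeR adjusted p = 0.0365), where 0.0157% of genes were called lower. In both of those fits Siglech fell in Ly6D+Gfra2+ cells. Leaving out any other library kept the adjusted p above the threshold, with 0.176 the highest.

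Between the Gfra2- compartments, Siglech averaged 292.7 ± 51.0 CPM in Ly6D+Gfra2- (SD, n = 4) and 77.5 ± 109.9 CPM in Ly6D-Gfra2- libraries (SD, n = 6). With all libraries the log2 difference was 2.57 (SE 0.59) and the edgeR adjusted p 0.659, or 0.0181 with no low-count filter. Without the library labelled replicate 3, the Ly6D-Gfra2- mean was 33.1 CPM, the groups did not overlap and Siglech rose 8.84-fold in the means, with a log2 difference of 3.22 (SE 0.38, edgeR adjusted p = 0.000837). Within prefix T the log2 difference was 3.72 (SE 0.55, edgeR adjusted p = 0.0679). Within prefix P it was 1.21 (SE 0.67, edgeR adjusted p = 0.773), with 346 and 276 CPM in Ly6D+Gfra2- against 54.9, 48.3 and 299 CPM in Ly6D-Gfra2- libraries. Between Ly6D+Gfra2+ and Ly6D-Gfra2- cells the log2 difference was -0.76 (SE 0.72, edgeR adjusted p = 0.688). In the libraries of prefix T, both held near-equal means, 18.4 CPM in Ly6D+Gfra2+ libraries and 20.8 CPM in Ly6D-Gfra2-.

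Spib, an ETS-family transcription factor needed by plasmacytoid dendritic cells and used by B cells (NM_019866, chr7:44525995-44532087), ran from 0 to 271 CPM over the 13 libraries. It was at 0, 0 and 0.217 CPM in Ly6D+Gfra2+ libraries, a total of 2 counts, against 271, 10.3, 44.2 and 28.6 CPM in Ly6D+Gfra2- libraries, a total of 5129 counts. A count of 0 allows up to 0.344 CPM in Ly6D+Gfra2+ replicate 4 and 0.359 CPM in replicate 5, by the level that 3 counts would give. The Ly6D-Gfra2- libraries ran from 0.119 CPM, with a median of 0.401 CPM, to 49.8 CPM in the library labelled replicate 3, and the next highest held 1.49 CPM. Every Ly6D+Gfra2- library was thus above every Ly6D+Gfra2+ library and above every Ly6D-Gfra2- library but the one labelled replicate 3.

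Over summed counts, Spib was 1212-fold lower in Ly6D+Gfra2+ CLP than in Ly6D+Gfra2- CLP, with a 95% exact counting interval of 335 to 10013 that covers counting error only. The edgeR fit gave an adjusted p of 0.0952 with all libraries, 0.0134 without the library labelled replicate 3 of Ly6D-Gfra2-, and 0.101 within prefix T. In Ly6D+Gfra2- against Ly6D-Gfra2- cells the log2 difference was 4.93 (SE 1.29, edgeR adjusted p = 0.807) over all 13. Without the library labelled replicate 3 it was 7.07 (SE 0.99, edgeR adjusted p = 0.00606). The libraries of prefix T alone gave 6.82 (edgeR adjusted p = 0.385). Spib passed the low-count filter only through the group where it is high: 4 Ly6D+Gfra2- libraries reached the 1.02 CPM that the filter asks of at least 3 libraries, against 0 of Ly6D+Gfra2+ and 2 of Ly6D-Gfra2-, or 1 without the labelled library. With no low-count filter and all 13 libraries its edgeR adjusted p was 0.00279 in Ly6D+Gfra2+ against Ly6D+Gfra2- and 0.0309 in Ly6D+Gfra2- against Ly6D-Gfra2-. Against Ly6D-Gfra2- cells, the Ly6D+Gfra2+ sum was 171-fold lower with all libraries (interval 47.2 to 1412) and 6.72-fold lower without the library labelled replicate 3 (interval 1.71 to 57.9), and the edgeR adjusted p was 0.519 and 0.621. Within the Ly6D+Gfra2- group, replicate 1 held 4171 of the 5129 counts.

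**Figure D1:**
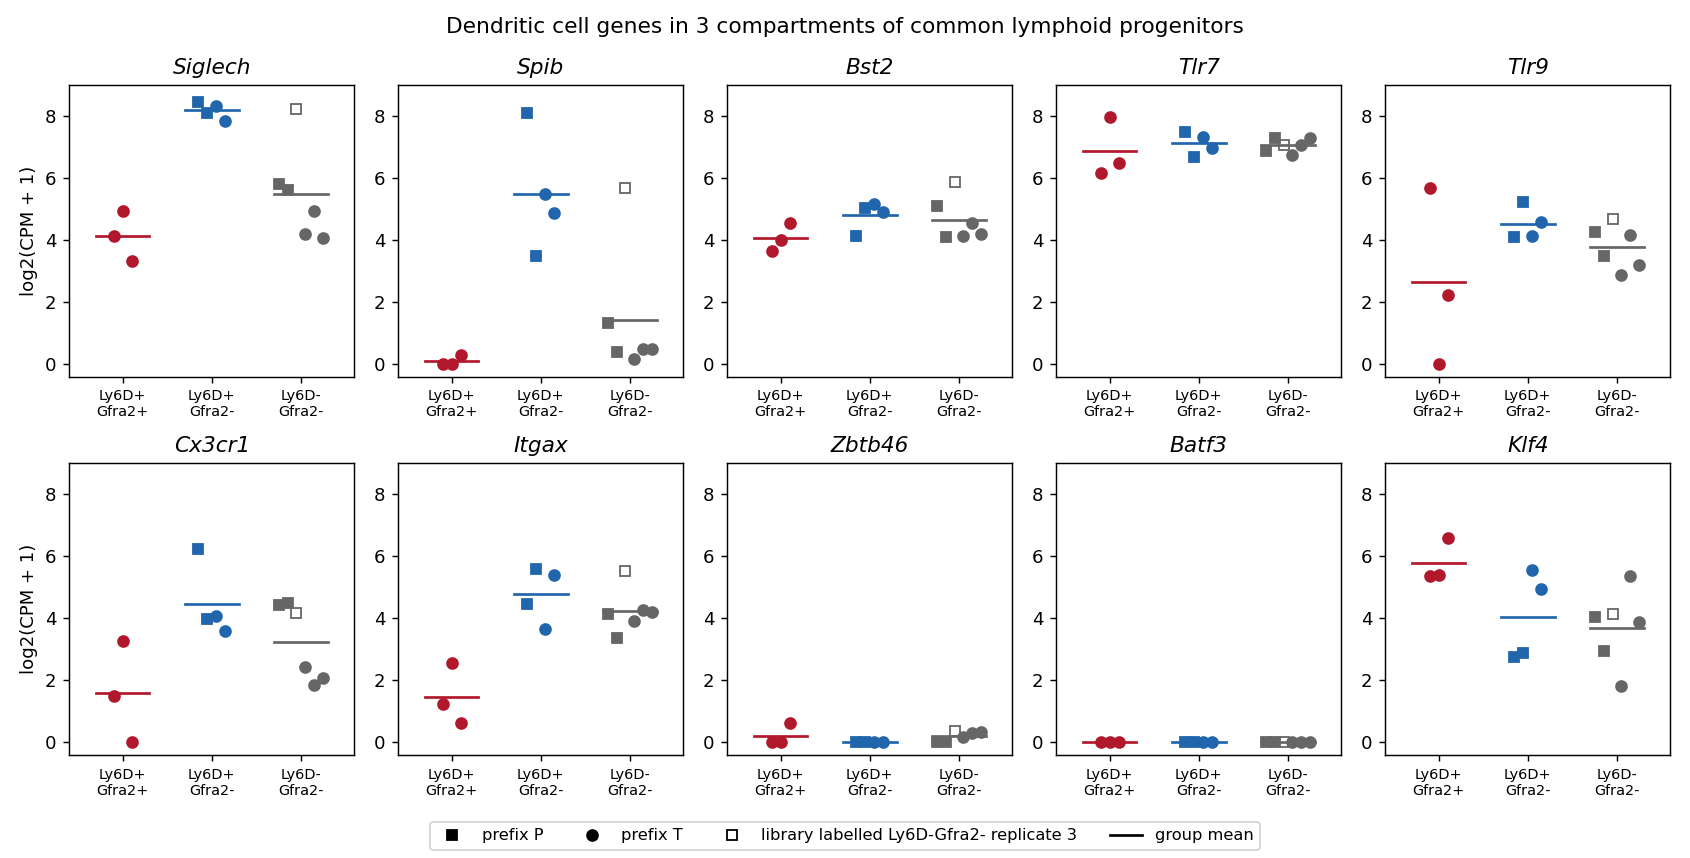
Level of each of the 10 genes as log2(CPM + 1) in each library, for Ly6D+Gfra2+, Ly6D+Gfra2- and Ly6D-Gfra2- CLP from left to right; squares are prefix P, circles prefix T, the open square is the library labelled replicate 3 of Ly6D-Gfra2-, and lines are group means of the plotted values. Siglech and Spib are high in all 4 Ly6D+Gfra2- libraries and in that labelled library, and Batf3 is at 0 in all 13.

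The library labelled replicate 3 of Ly6D-Gfra2- stood with the Ly6D+Gfra2- libraries for Ly6d, Siglech and Spib at once. The Ly6D+Gfra2+ libraries also carried Ly6d, at 171, 283 and 205 CPM, while their Siglech stayed at or below 29.6 CPM and their Spib at or below 0.217 CPM. High Ly6d thus stood beside high Siglech in Ly6D+Gfra2- libraries and beside low Siglech in Ly6D+Gfra2+ libraries.

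**Figure D2:**
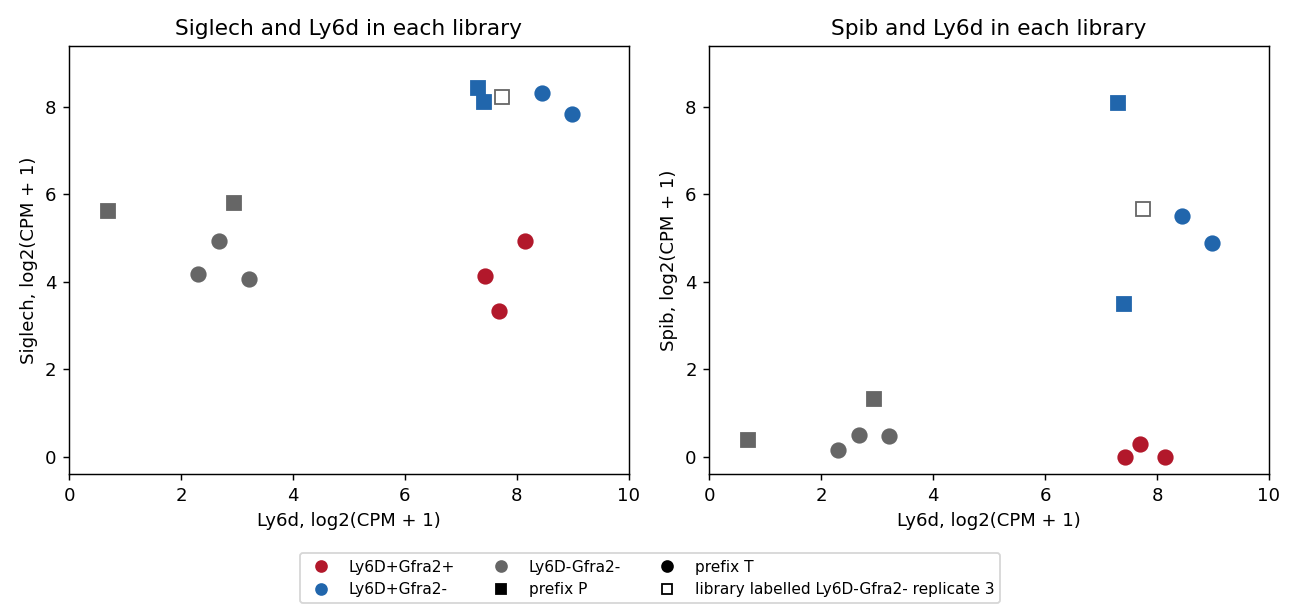
Siglech (left) and Spib (right) against the sort marker Ly6d in each of the 13 libraries, all as log2(CPM + 1), coloured by compartment. Ly6D+Gfra2+ and Ly6D+Gfra2- libraries share the right side of each panel, with Ly6d at 158 CPM or more, and are apart in height; the open square is the library labelled replicate 3 of Ly6D-Gfra2-.

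Genes with the profile most like that of Siglech were ranked by Pearson's r of log2(CPM + 1) over the 13 libraries, among 10413 genes whose mean reached 5 CPM. As a description, and with library prefix and the labelled replicate 3 shared by all points, they were Strip2 (r = 0.93), Spib (0.91), Fcer1g (0.90), Ctsb (0.89) and Irf8 (0.87). Fcer1g encodes the Fc receptor gamma chain, an adaptor with a signalling motif, and Ctsb the lysosomal protease cathepsin B. Strip2 was at 0 in all 3 Ly6D+Gfra2+ libraries and averaged 37.4 CPM in Ly6D+Gfra2- libraries and 10.7 CPM in Ly6D-Gfra2- libraries, or 2.54 CPM without the labelled replicate 3, which held 51.6 CPM. For Spib the most alike were Ccne2 (r = 0.92), which encodes cyclin E2 of the G1/S transition, Siglech (0.91), Tfrc (0.89), the transferrin receptor, Strip2 (0.88) and Mapk1ip1 (0.88).

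Bst2, the membrane protein tetherin that holds budding virus at the cell surface and serves as a plasmacytoid marker in resting mice (NM_198095, chr8:71534255-71537472), was present in every library, from 11.6 to 57.5 CPM. It was at 11.6, 14.96 and 22.2 CPM in Ly6D+Gfra2+ libraries, against 16.4, 32.0, 35.1 and 29.0 CPM in Ly6D+Gfra2- libraries. Ly6D-Gfra2- libraries ran from 15.97 CPM, with a median of 20.0 CPM, to 57.5 CPM in the library labelled replicate 3. The 3 ranges overlapped, and the log2 difference of Ly6D+Gfra2+ from Ly6D+Gfra2- cells was -0.64 (SE 0.64, edgeR adjusted p = 0.729). Between Ly6D+Gfra2- and Ly6D-Gfra2- it was 0.13 (SE 0.52, edgeR adjusted p = 0.999), a sign that turned within prefix P, at -0.55. It was 0.41 without the library labelled replicate 3 (SE 0.54, edgeR adjusted p = 1).

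Tlr7, the endosomal receptor for single-stranded RNA (NM_001290755, chrX:167303380-167330574), had similar means in the 3 compartments. It was at 69.9, 249.9 and 89.4 CPM in Ly6D+Gfra2+ libraries, against 177, 102, 159 and 124 CPM in Ly6D+Gfra2- libraries and 106 to 157 CPM, with a median of 133 CPM, in Ly6D-Gfra2- libraries. Its means were 136.4 ± 98.8 CPM (SD, n = 3), 140.7 ± 33.8 CPM (SD, n = 4) and 133.4 ± 20.3 CPM (SD, n = 6) in that order. The fitted log2 differences were -0.04 (SE 0.41) for Ly6D+Gfra2+ against Ly6D+Gfra2-, 0.04 (SE 0.38) for Ly6D+Gfra2+ against Ly6D-Gfra2- and 0.08 (SE 0.32) for Ly6D+Gfra2- against Ly6D-Gfra2-. All 3 edgeR adjusted p-values were 0.98 or above, and the sign of each turned under some alternatives, so no direction is given for Tlr7.

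Tlr9, the endosomal receptor for unmethylated CpG DNA (NM_031178, chr9:106222598-106226876), was at 50.7, 0 and 3.68 CPM in Ly6D+Gfra2+ libraries. The Ly6D+Gfra2- libraries held 16.2, 36.1, 16.7 and 23.0 CPM, and the Ly6D-Gfra2- libraries 6.31 to 24.7 CPM with a median of 13.5 CPM. Ly6D+Gfra2+ thus held both the highest and the lowest value of the 13 libraries, and a count of 0 in its replicate 5 allows up to 0.359 CPM. The log2 difference from Ly6D+Gfra2- was -0.03 (SE 1.23, edgeR adjusted p = 0.997), and it was -3.31 without Ly6D+Gfra2+ replicate 4 and 0.56 without replicate 5.

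Cx3cr1, the fractalkine receptor of monocytes and of mononuclear phagocyte precursors (NM_009987, chr9:120048683-120068296), was at 1.83, 8.62 and 0 CPM in Ly6D+Gfra2+ libraries, against 74.2, 14.8, 15.9 and 11.2 CPM in Ly6D+Gfra2- libraries. These groups did not overlap, yet the log2 difference of -1.73 (SE 1.13) had an edgeR adjusted p of 0.54. Ly6D-Gfra2- libraries split by prefix: those of prefix P held 20.5, 21.5 and 17.2 CPM and those of prefix T 4.40, 2.64 and 3.24 CPM. Within prefix T the means were 3.48 CPM in Ly6D+Gfra2+, 13.5 CPM in Ly6D+Gfra2- libraries and 3.43 CPM in Ly6D-Gfra2- libraries.

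Itgax, the integrin CD11c carried by most dendritic cells (NM_021334, chr7:128129526-128150657), was at 1.37, 4.91 and 0.542 CPM in Ly6D+Gfra2+ libraries, against 21.2, 47.4, 11.6 and 41.6 CPM in Ly6D+Gfra2- libraries. Ly6D-Gfra2- libraries ran from 9.25 CPM, with a median of 16.9 CPM, to 44.9 CPM in the library labelled replicate 3. Every Ly6D+Gfra2+ library was below every library of both other groups. The log2 difference was -3.50 (SE 0.95, edgeR adjusted p = 0.12) from Ly6D+Gfra2- and -2.89 (SE 0.90, edgeR adjusted p = 0.133) from Ly6D-Gfra2-. They were -3.75 and -2.73 without the library labelled replicate 3 (edgeR adjusted p = 0.137 and 0.182). DESeq2 called both, with adjusted p = 0.00267 and 0.00896 over all 13. Within prefix T the differences were -3.56 (edgeR adjusted p = 0.366) and -2.87 (edgeR adjusted p = 0.304).

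Zbtb46 and Batf3, both transcription factors, were barely detected. Zbtb46, a marker of the conventional lineage (NM_027656, chr2:181371009-181493262), had 5 counts in Ly6D+Gfra2+ libraries, all in replicate 6, 0 in the 4 Ly6D+Gfra2- libraries and 12 in Ly6D-Gfra2- libraries, 6 of them in the library labelled replicate 3. For Ly6D+Gfra2- the count of 0 allows up to 0.0539 CPM over the group. Batf3, needed for the cross-presenting conventional subset (NM_030060, chr1:191098414-191108943), had 0 counts in all 13 libraries, which allows up to 0.0184 CPM over them together. Both failed the filter on low counts, and 8 of the 10 members were tested.

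Klf4, a zinc-finger factor of monocytes and of a subset of conventional dendritic cells (NM_010637, chr4:55527137-55532475), had its highest level in Ly6D+Gfra2+ cells. It was at 40.7, 41.0 and 96.4 CPM in Ly6D+Gfra2+ libraries, against 5.78, 6.395, 46.2 and 30.1 CPM in Ly6D+Gfra2- libraries and 2.50 to 40.1 CPM, with a median of 14.5 CPM, in Ly6D-Gfra2- libraries. Every Ly6D+Gfra2+ library was above every Ly6D-Gfra2- library, though the nearest values were 40.7 and 40.1 CPM. The log2 difference was 1.19 (SE 0.84, edgeR adjusted p = 0.543) from Ly6D-Gfra2- and 1.14 (SE 0.80, edgeR adjusted p = 0.574) from Ly6D+Gfra2-. In Ly6D+Gfra2- the low libraries were those of prefix P and the high ones those of prefix T.

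**Figure D3:**
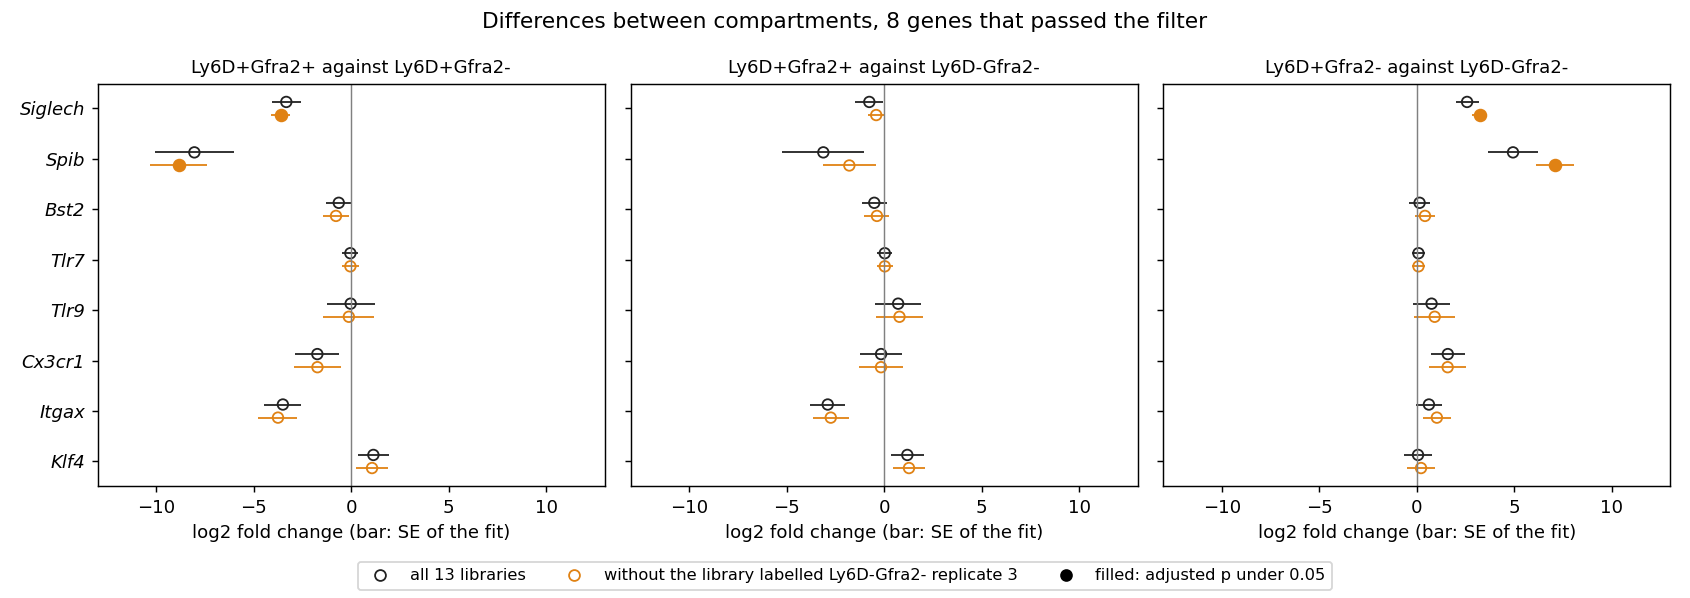
Log2 fold changes with the SE of the edgeR fit for the 8 genes that passed the filter, in the 3 comparisons, with all 13 libraries (black) and without the library labelled replicate 3 of Ly6D-Gfra2- (orange); filled points have an adjusted p under 0.05. Filled points are Siglech and Spib, in the left and right panels, and only without that library; Spib values against Ly6D+Gfra2+ rest on 2 counts there and depend on the fit's prior count.

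Counted over the members, none of the 8 tested was called in any comparison by the edgeR fit over all 13 libraries with compartment and prefix terms after the low-count filter. With no such filter that fit called both Siglech and Spib: higher in Ly6D+Gfra2- CLP than in Ly6D-Gfra2- CLP, beside 0.0495% of genes called higher, and lower in Ly6D+Gfra2+ CLP than in Ly6D+Gfra2- CLP, beside 0.501% of genes called lower. Since Spib was tested only through its high group, the counts and medians over the 8 are a description. The background was 0.00% of 12722 genes called for Ly6D+Gfra2- against Ly6D-Gfra2-, 0.409% for Ly6D+Gfra2+ against Ly6D+Gfra2- and 1.39% for Ly6D+Gfra2+ against Ly6D-Gfra2-. At an unadjusted edgeR p under 0.05 there were 2, 3 and 1 members, beside 599, 1677 and 1953 genes. DESeq2 called 0, 1 and 1 members, beside 0.157%, 4.27% and 6.17% of genes; the member was Itgax each time, and DESeq2 gave Siglech and Spib no p. Without the library labelled replicate 3 of Ly6D-Gfra2-, edgeR called Siglech and Spib higher in Ly6D+Gfra2- CLP than in Ly6D-Gfra2- CLP, beside 0.127% of genes called higher. It called both lower in Ly6D+Gfra2+ CLP than in Ly6D+Gfra2- CLP, beside 0.135% of genes called lower, and it called 0 members in the third comparison, beside 1.12% of genes. There Itgax alone had an unadjusted edgeR p under 0.05, and DESeq2 called it (adjusted p = 0.0174). The comparisons share libraries, so their values are not independent of each other.

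By the separation of libraries, 4 of the 8 tested members (Siglech, Spib, Cx3cr1 and Itgax) had every Ly6D+Gfra2+ library below every Ly6D+Gfra2- library, beside 5.71% of genes. Within prefix T these were 5, with Bst2 added, beside 13.6% of genes. In Ly6D+Gfra2- against Ly6D-Gfra2-, 0 members were separated upwards with all libraries (0.582% of genes), 2 without the library labelled replicate 3 (1.36% of genes), which were Siglech and Spib, and 4 within prefix T (12.0% of genes), with Bst2 and Cx3cr1 added. For Ly6D+Gfra2+ against Ly6D-Gfra2-, Klf4 alone was separated upwards, beside 4.03% of genes, and Itgax alone downwards, beside 6.19% of genes. The median log2 difference over the 8 was -1.19 in Ly6D+Gfra2+ against Ly6D+Gfra2-, beside 0.03 over all genes, and 0.68 in Ly6D+Gfra2- against Ly6D-Gfra2-, beside -0.01 over all genes.

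The difference between Ly6D+Gfra2- and Ly6D-Gfra2- was also tested for a change with the prefix. Siglech differed by less in prefix P than in prefix T, by -2.50 on the log2 scale, with an edgeR adjusted p of 0.613. For Spib it changed by -3.79, with an edgeR adjusted p of 0.724. Over all genes 0 of 13194 were called and 973 had an unadjusted p under 0.05. The library labelled replicate 3 is among the 3 Ly6D-Gfra2- libraries of prefix P.

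Levels were compared between genes as mean CPM per kilobase of transcript. In Ly6D+Gfra2+ cells the order was Tlr7 at 35.0 ± 25.3, Bst2 at 20.5 ± 6.86, Klf4 at 19.6 ± 10.6, Siglech at 8.62 ± 4.84 and Tlr9 at 5.22 ± 8.13 CPM per kilobase (SD, n = 3), with Cx3cr1, Itgax, Zbtb46 and Spib under 1 and Batf3 at 0. The first 3 did not differ beyond their spread. In Ly6D+Gfra2- cells Siglech led at 136.9 ± 23.8, clear of Tlr7 at 36.1 ± 8.67, Bst2 at 35.5 ± 10.3 and Spib at 31.7 ± 43.9 CPM per kilobase (SD, n = 4), whose ranges overlapped. Cx3cr1, Itgax, Klf4 and Tlr9 followed between 6.61 and 7.73 CPM per kilobase, within their spread. In Ly6D-Gfra2- cells Siglech at 36.3 ± 51.4, Bst2 at 34.4 ± 20.5 and Tlr7 at 34.2 ± 5.21 CPM per kilobase (SD, n = 6) lay within their spread, and Klf4, Itgax, Tlr9, Spib and Cx3cr1 followed between 3.08 and 5.22. With the library labelled replicate 3 left out, the order began with Tlr7 at 34.2 ± 5.83, Bst2 at 26.7 ± 9.21 and Siglech at 15.5 ± 8.36 CPM per kilobase (SD, n = 5). Every Tlr7 value then lay above every Siglech value, and Spib was at 0.195 ± 0.194 CPM per kilobase (SD, n = 5), after Klf4, Itgax, Tlr9 and Cx3cr1.

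Beyond the members, 18 other plasmacytoid dendritic cell genes were examined, of which 17 were tested. Shares over all genes, for this list and the later ones, were as follows. For Ly6D+Gfra2+ against Ly6D+Gfra2-, edgeR called 0.409% and DESeq2 4.27%, and 13.2% had an unadjusted edgeR p under 0.05. These shares were 1.39%, 6.17% and 15.4% for Ly6D+Gfra2+ against Ly6D-Gfra2-. They were 0%, 0.157% and 4.71% for Ly6D+Gfra2- against Ly6D-Gfra2-. In Ly6D+Gfra2+ against Ly6D+Gfra2- cells, 13 of the 17 had negative and 4 positive values, with a median of -0.92 beside 0.03 over all genes. Of the 17, edgeR called 1, lower. That gene was Runx2, a RUNX factor that plasmacytoid cells use to leave the bone marrow. It averaged 348 ± 71.6 CPM in Ly6D+Gfra2+ libraries and 1782 ± 289.7 CPM in Ly6D+Gfra2- libraries (SD, n = 3 and 4), and fell by 2.17 on the log2 scale (SE 0.30, edgeR adjusted p = 0.00384). The call was kept with each of the 13 libraries left out in turn, with adjusted p-values from 0.000838 to 0.0217. Runx2 was also lower than in Ly6D-Gfra2- cells, at 1170 ± 532 CPM (SD, n = 6), by -1.48 (SE 0.29, edgeR adjusted p = 0.0204), a call lost without Ly6D+Gfra2+ replicate 4 or Ly6D-Gfra2- replicate 5, where the highest adjusted p was 0.0603.

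Irf8, a transcription factor of dendritic cells and monocytes, averaged 180.1 ± 85.9 CPM in Ly6D+Gfra2+ libraries and 758 ± 136 CPM in Ly6D+Gfra2- libraries (SD, n = 3 and 4), a log2 difference of -1.69 (SE 0.43, edgeR adjusted p = 0.0986). Pacsin1, a membrane-trafficking protein of plasmacytoid cells, had 1 count in Ly6D+Gfra2+ libraries and 488 in Ly6D+Gfra2- libraries, where it ran from 0.195 to 26.0 CPM around a mean of 9.90 ± 11.2 CPM (SD, n = 4). This was a 231-fold lower sum in Ly6D+Gfra2+, with a 95% counting interval of 41.2 to 9130 (edgeR adjusted p = 0.114). Tcf4, the E protein that directs plasmacytoid fate, was named for that role after its values were seen. It averaged 412 ± 47.7 CPM in Ly6D+Gfra2+ libraries, 652 ± 104 CPM in Ly6D+Gfra2- libraries and 572 ± 99.7 CPM in Ly6D-Gfra2- libraries (SD, n = 3, 4 and 6). Means of Zeb2 and Bcl11a, of the same list, went the other way, within their spread. Zeb2 averaged 454 ± 190 CPM in Ly6D+Gfra2+ libraries and 370 ± 111 CPM in Ly6D+Gfra2- libraries (SD, n = 3 and 4). Bcl11a averaged 371 ± 80.8 CPM and 354 ± 69.4 CPM in the same order. In the fit 13 of the 17 genes were negative and 4 positive. DESeq2 called Pacsin1, Cox6a2, Irf8 and Runx2 lower in Ly6D+Gfra2+ CLP than in Ly6D+Gfra2- CLP, beside 2.54% of genes called lower.

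In Ly6D+Gfra2- against Ly6D-Gfra2- cells 15 of the 17 had positive and 2 negative values, with a median of 0.41 beside -0.01 over all genes. Of the 17, edgeR called 0, with 3 at an unadjusted p under 0.05, beside 4.71% of genes. DESeq2 called 0 as well. The 3 were Cox6a2, a subunit of cytochrome c oxidase (1.55, SE 0.39), Irf8 (1.20, SE 0.35) and Runx2 (0.69, SE 0.23), each with an edgeR adjusted p of 0.807. Without the library labelled replicate 3 their adjusted p-values were 0.331, 0.204 and 0.131. Cox6a2 averaged 240.1 ± 171 CPM in Ly6D+Gfra2- libraries and 81.1 ± 39.4 CPM in Ly6D-Gfra2- libraries (SD, n = 4 and 6).

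**Figure D4:**
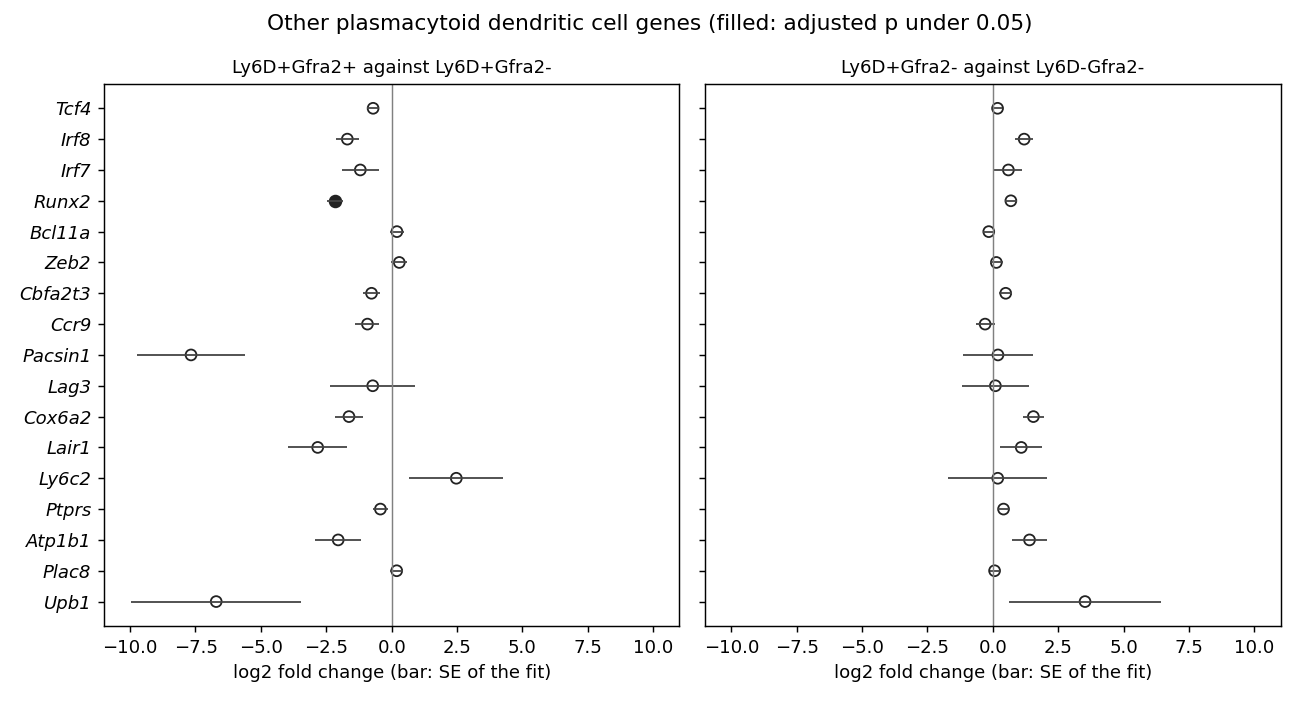
Log2 fold changes with the SE of the edgeR fit, all 13 libraries, for the 17 tested genes of the plasmacytoid dendritic cell list outside the 10 members, in Ly6D+Gfra2+ against Ly6D+Gfra2- cells (left) and Ly6D+Gfra2- against Ly6D-Gfra2- cells (right). Runx2 on the left is the only filled point, which marks an adjusted p under 0.05; 13 genes lie left of 0 on the left and 15 right of 0 on the right.

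Of 26 conventional dendritic cell genes 19 were tested. In Ly6D+Gfra2+ against Ly6D+Gfra2- cells edgeR called 0, beside 0.409% of genes, with 6 at an unadjusted p under 0.05, beside 13.2% of genes. DESeq2 called 2, both lower, Nfil3 and Clec10a, beside 2.54% of genes called lower. Clec10a, a lectin of conventional cells and macrophages, had 0 counts in Ly6D+Gfra2+ and 557 in Ly6D+Gfra2- libraries, at least 87.8-fold lower against 3 counts over the group. In Ly6D+Gfra2+ against Ly6D-Gfra2- cells edgeR called 1 of the 19 higher and 1 lower, beside 0.928% and 0.464% of genes. DESeq2 called 5, of which 2 were higher and 3 lower, beside 2.64% and 3.53% of genes. Irf4, a factor of one conventional subset and of B-lineage cells, averaged 85.3 ± 21.9 CPM in Ly6D+Gfra2+ libraries and 5.18 ± 4.54 CPM in Ly6D-Gfra2- libraries (SD, n = 3 and 6) and rose by 4.002 on the log2 scale (SE 0.88, edgeR adjusted p = 0.0336). That call was lost with 7 of the 13 libraries left out in turn, with adjusted p-values up to 0.111, and with scaling by library size alone. Nfil3, a bZIP factor of innate lymphoid and conventional dendritic cell development, had 5 counts in Ly6D+Gfra2+ and 3002 in Ly6D-Gfra2- libraries and fell by 7.103 (SE 1.35, edgeR adjusted p = 0.0167). It missed the threshold once Ly6D-Gfra2- replicate 6 was left out (adjusted p = 0.0601) and within prefix T (adjusted p = 0.0993).

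A further list held genes for proteins that bring Tlr7 and Tlr9 to the endosome or signal from it, and other receptors. RNA of its genes was counted in all 3 compartments but for Tlr13, which had no count in Ly6D+Gfra2- libraries. The receptors Tlr3 and Tlr8 were low, with group means of at most 1.01 and 1.37 CPM. All 24 genes of that list were tested, and edgeR called 0 in each of the 3 comparisons, with 3, 3 and 1 at an unadjusted p under 0.05 for Ly6D+Gfra2+ against Ly6D+Gfra2-, Ly6D+Gfra2+ against Ly6D-Gfra2- and Ly6D+Gfra2- against Ly6D-Gfra2-. Over all genes the shares at that p were 13.2%, 15.4% and 4.71% in that order. DESeq2 called Unc93b1 and Traf6 higher in Ly6D+Gfra2+ CLP than in Ly6D-Gfra2- CLP and none in the other comparisons. Unc93b1, the chaperone of the nucleic acid-sensing receptors, averaged 346 ± 212 CPM in Ly6D+Gfra2+ libraries, 197 ± 45.9 CPM in Ly6D+Gfra2- libraries and 137 ± 44.6 CPM in Ly6D-Gfra2- libraries (SD, n = 3, 4 and 6), with a log2 difference of 1.57 from Ly6D-Gfra2- (SE 0.39, edgeR adjusted p = 0.0614). Cnpy3, another chaperone of Toll-like receptors, differed by 1.30 from Ly6D+Gfra2- (SE 0.44, edgeR adjusted p = 0.21) and Traf6, an adaptor ubiquitin ligase, by 0.59 (SE 0.26, edgeR adjusted p = 0.342).

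Siglech passes its signal through the adaptor Tyrobp, also called DAP12, to the kinase Syk. Of 13 genes of the Siglec family and its adaptors 10 were tested and edgeR called 0 in the 3 comparisons, with 2, 1 and 2 at an unadjusted p under 0.05 in the order above, while DESeq2 called Tyrobp lower in Ly6D+Gfra2+ CLP than in Ly6D+Gfra2- CLP. Tyrobp averaged 18.0 ± 10.7 CPM in Ly6D+Gfra2+ libraries, 89.7 ± 17.7 CPM in Ly6D+Gfra2- libraries and 47.3 ± 15.7 CPM in Ly6D-Gfra2- libraries (SD, n = 3, 4 and 6). Its log2 difference from Ly6D+Gfra2- was -2.25 (SE 0.54, edgeR adjusted p = 0.0814). Syk averaged 313 ± 53.7 CPM, 354 ± 55.6 CPM and 234 ± 16.5 CPM in the same order of groups. Of the interferon-induced genes, to which Bst2 belongs, 23 were tested and edgeR called 0 in every comparison, with 1, 3 and 1 at an unadjusted p under 0.05; DESeq2 called Stat2 lower in Ly6D+Gfra2+ CLP than in Ly6D+Gfra2- CLP. Of the cell-surface Toll-like receptors and their partners 7 of 11 were tested, and edgeR and DESeq2 called 0 in every comparison, with 1, 0 and 2 at an unadjusted edgeR p under 0.05. For the Siglec, interferon-induced and cell-surface receptor lists alike, the shares over all genes at that p were 13.2%, 15.4% and 4.71% in that order.

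Markers of other cells that share these genes were also summed, beside 8344 to 12927 CPM over 12 CLP markers in any library. Summed over 13 monocyte and macrophage markers, libraries ran from 123 to 239 CPM in Ly6D+Gfra2+, 86.5 to 179 CPM in Ly6D+Gfra2- libraries and 154 to 329 CPM in Ly6D-Gfra2-. Lyz2, the lysozyme of myeloid cells, averaged 89.7 ± 23.8, 52.4 ± 18.0 and 125.7 ± 53.7 CPM in that order of groups (SD, n = 3, 4 and 6). Csf1r, the receptor for macrophage colony-stimulating factor, averaged 14.7 ± 9.90, 21.6 ± 22.0 and 59.0 ± 50.5 CPM, and Cd68, a lysosomal protein of macrophages, 34.02 ± 22.3, 25.9 ± 9.58 and 29.4 ± 11.3 CPM. F13a1 reached 68.1 CPM in 1 Ly6D+Gfra2+ library, and at most 9.09 CPM in Ly6D+Gfra2- libraries and 34.2 CPM in Ly6D-Gfra2-. Cd14, a defining marker of monocytes, was at 0 in all 3 groups, and Adgre1, Fcgr1 and Fcgr3 were also at 0 in Ly6D+Gfra2+. Of the 9 monocyte and macrophage markers tested, 7 were positive in Ly6D+Gfra2+ against Ly6D+Gfra2-, 2 in Ly6D+Gfra2+ against Ly6D-Gfra2- and 1 in Ly6D+Gfra2- against Ly6D-Gfra2-, with medians of 0.76, -0.51 and -1.28.

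Over 10 granulocyte markers the sums were 105 to 317 CPM in Ly6D+Gfra2+, 294 to 514 CPM in Ly6D+Gfra2- libraries and 462 to 1205 CPM in Ly6D-Gfra2-, with 462 CPM in the library labelled replicate 3. Of the 5 tested, 2, 1 and 0 were positive in the same order of comparisons, with medians of -0.72, -1.75 and -3.96. In Ly6D+Gfra2+ against Ly6D-Gfra2- cells edgeR called S100a9, a calcium-binding protein of neutrophils, and Mpo, myeloperoxidase, both lower, with adjusted p-values of 0.0417 and 0.0325. Over all genes, 0.464% were called lower in that comparison. Leaving out each library in turn kept the S100a9 call in 4 of 13 fits and the Mpo call in 9. Mpo averaged 239.5 ± 122.7 CPM in Ly6D+Gfra2+ libraries and 792 ± 242 CPM in Ly6D-Gfra2- libraries (SD, n = 3 and 6). S100a9 had 1 count in Ly6D+Gfra2+ and 2371 in Ly6D-Gfra2- libraries, where it ran from 0 to 177 CPM. No library of either Ly6D+ group reached the 1.02 CPM of the low-count filter for S100a9. That gene was thus tested only through the group where it is high. Its calls and the medians over the 5 granulocyte markers are therefore a description. DESeq2 called S100a9 and Mpo too, and S100a9 lower also in Ly6D+Gfra2- CLP than in Ly6D-Gfra2- CLP (adjusted p = 0.0366).

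Over 11 mature B and plasma cell markers the sums were 107 to 365 CPM, 183 to 265 CPM and 109.9 to 273 CPM in the same order of groups, and Ms4a1, a defining B cell marker, was at 0 in every group. Over 12 T and NK cell markers they were 151 to 300.4 CPM, 158 to 279 CPM and 152 to 339 CPM, and over 9 erythroid markers 21.6 to 103 CPM, 32.1 to 97.1 CPM and 63.2 to 467 CPM. In the same order of comparisons, 7, 4 and 3 of the 9 B and plasma cell markers tested were positive, as were 2, 3 and 2 of 4 T and NK cell markers and 5, 2 and 0 of 9 erythroid markers. The medians were 1.56, -0.63 and -1.20 for B and plasma cell markers and 0.42, -2.50 and -2.45 for erythroid markers. In these 3 lists and that of monocytes edgeR called 0 in every comparison. At an unadjusted edgeR p under 0.05 there were 2, 1 and 0 B and plasma cell markers, 1, 1 and 3 erythroid markers and 0, 1 and 3 monocyte and macrophage markers, with no T and NK cell marker. Over all genes the shares at that p were 13.2%, 15.4% and 4.71%. DESeq2 called Xbp1 lower and Car1 higher in Ly6D+Gfra2+ CLP than in Ly6D+Gfra2- CLP, and no other gene of these 4 lists. The part of such cells in the results above was not tested.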

How the data were processed

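The authors deposited raw counts per RefSeq identifier, 1 file per library, per the file headers. Tools named in the submitters' processing notes are DESeq, HOMER, TopHat, HISAT and FastQC, with mm10 as the build and no role or order; strand setting and multi-mapping are not given in the sources used here, so reads of overlapping or antisense genes cannot be told apart. Libraries were built from total RNA with low-input amplification kits, per the labels' protocols. Of 24072 identifiers, 23815 were named from the RefSeq table of GRCm38.p6 and 144 from GENCODE; 113 had no name.

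The test was the two-sided quasi-likelihood one of edgeR 4.0.16 (R 4.3.3, limma 3.58.1) with TMM scaling and terms for compartment and prefix, after filterByExpr (minimum count 10, minimum total 15), which left 12722 genes. Benjamini-Hochberg adjustment ran over all genes tested, and a gene was called at an adjusted p under 0.05. CPM are per 1000000 counts of the scaled library. SE is that of the log2 fold change, first group minus second. Where a group held 1 to 3 counts of a gene, the ratio of summed counts has a 95% exact interval, and a count of 0 gives a bound at 3 counts. Such intervals cover counting error only. Alternatives were DESeq2 1.42.0, other scalings, filters and designs, single prefixes and each library left out in turn.

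The members, lists and tests were chosen with earlier results of these data known. The text names all 10 members. Of the wider lists, CLP markers aside, it names the genes called by edgeR and others among the 3 with the smallest p per list and comparison. Among the 12 CLP markers, every edgeR call was for more RNA in Ly6D+Gfra2+ cells. These were Gfra2 and Rag1 against Ly6D+Gfra2- cells, and Il7r, Gfra2, Rag2, Cd93 and Rag1 against Ly6D-Gfra2- cells. Some genes called by DESeq2 alone were not described, with Wdfy4, Btla and Notch1 among them. The text also names the 5 genes most like Siglech and Spib in profile. Other list genes were named outside these rules, among them Tcf4, Zeb2, Bcl11a, Cd14, Adgre1, Fcgr1, Fcgr3 and Ms4a1. No libraries held identical values.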

Additional observations from a re-analysis of the deposited data

Results flagged for a closer look

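In 6 cases a library stood far from the others of its group, by Dixon's test on the gap to the nearest library; chance flags about 1 in 20 groups. In 3 of them the library was the one labelled Ly6D-Gfra2- replicate 3. It held Siglech at 299 CPM, while the other 5 Ly6D-Gfra2- libraries reached at most 54.9 CPM. It held Spib at 49.8 CPM, while the others reached at most 1.49 CPM, and Itgax at 44.9 CPM, while the others reached at most 18.1 CPM. Its Ly6d level, 213 CPM, also lay among those of the Ly6D+ libraries.

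Ly6D+Gfra2- replicate 1 stood apart for Spib, at 271 CPM with the next highest at 44.2 CPM, and for Cx3cr1, at 74.2 CPM with the next highest at 15.9 CPM. Klf4 stood apart in Ly6D-Gfra2- replicate 5, at 40.1 CPM with the next highest at 16.6 CPM. Groups of 3, such as Ly6D+Gfra2+, were not examined in this way.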

How the results depend on the processing

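Siglech and Spib in Ly6D+Gfra2- against Ly6D-Gfra2- cells passed the threshold without the library labelled Ly6D-Gfra2- replicate 3, with no filter on low counts (adjusted p = 0.0181 and 0.0309) and with a replicate block. In Ly6D+Gfra2+ against Ly6D+Gfra2- cells the same settings passed both (0.00057 and 0.00279 with no filter), and Siglech also passed with no prefix term (0.044), with only the 2 groups compared (0.0244) and within prefix T. Where a result changed, the cause was not tested. The low counts of Spib, Zbtb46 and Batf3 limit what depth can show.

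For Ly6D+Gfra2- against Ly6D-Gfra2-, 0 genes were called as reported, against 20 with DESeq2, 9 with no filter, 1 within prefix T and 66 with DESeq2 and without the labelled library, which was chosen after seeing the data. Leaving out each library gave 0 to 16 genes. Members called, 0 as reported, were 2 with no filter, 2 with DESeq2 without the labelled library and 0 to 2 with each library left out.

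For Ly6D+Gfra2+ against Ly6D+Gfra2-, 52 genes were called, against 543 with DESeq2, 164 with no filter, 103 with no prefix term, 8 with only the 2 groups, 9 within prefix T and 470 with DESeq2 without the labelled library. Leaving out each library gave 12 (without Ly6D+Gfra2- replicate 5) to 184 (without Ly6D+Gfra2+ replicate 6). Members called, 0 as reported, were 1 with DESeq2, 2 with no filter, 1 with no prefix term, 1 with only the 2 groups, 1 within prefix T, 3 with DESeq2 without the labelled library and 0 to 2 with each library left out.

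For Ly6D+Gfra2+ against Ly6D-Gfra2-, 177 genes were called, against 785 with DESeq2, 111 with library size alone, 318 with no filter, 72 with only the 2 groups, 62 within prefix T and 709 with DESeq2 without the labelled library. Leaving out each library gave 49 (without Ly6D-Gfra2- replicate 5) to 372 (without Ly6D+Gfra2+ replicate 6). Members called were 1 with DESeq2 with and without the labelled library, and 0 otherwise. Library size alone moved the median log2 difference of all genes to -0.147 against Ly6D+Gfra2- and -0.248 against Ly6D-Gfra2-.

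With the replicate number as a block, a replicate block gave 8, 25 and 92 genes and 2, 2 and 0 members in the order of the paragraphs above. It gave Siglech adjusted p = 0.000929 and Spib 0.00701 in the first comparison, and 0.00352 and 0.0126 in the second. Same-numbered libraries deviated from their group means together with r from 0.0627 to 0.137 over 4 pairs, -0.0277 to 0.00989 over 2 and -0.0105 to 0.0155 over 3. The prefix was not removed in these values. In the comparison with 4 such pairs, different-numbered libraries of the same prefix gave r from 0.0206 to 0.0890. With the prefix mean also removed, the 4 pairs gave r from -0.0215 to 0.0390. The numbers were not taken as pairs in the reported fit. They recur across compartments in the title codes, and what they stand for is not given, so whether they pair libraries is not known. The block turned Tlr7 to -0.10 in the first comparison and to -0.12 in the third, and Tlr9 to -1.47 in the third.

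Other signs turned, all in differences that missed the threshold. In the first comparison Bst2 was -0.55 within prefix P, -0.026 there without the labelled library and -0.062 to 0.44 with each library left out. Tlr7 was -0.023 with library size alone and -0.084 to 0.22 with each library left out. Klf4 was -0.043 with library size alone, -1.08 within prefix P, -0.86 there without the labelled library and -0.34 to 0.49 with each library left out. In the second, leaving out each library gave -0.82 to 0.27 for Tlr7 and -3.31 to 0.56 for Tlr9. In the third, Tlr7 was -0.28 with library size alone and -0.74 to 0.34 with each library left out, Tlr9 -2.57 to 1.31, and Cx3cr1 0.022 with only the 2 groups, 0.0073 within prefix T and -2.08 to 0.43 with each library left out.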
